A study of Xenopus laevis with 11 samples.

Results

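The regions described here are peaks of H3K4me3 (histone H3 trimethylated at lysine 4) that were called in replicate 1 of a pair of libraries, were not called in replicate 2, and coincided with a site of the coactivator p300. They were chosen by position alone: an interval of the H3K4me3 replicate 1 peak list on an L or S chromosome that shares no base with any replicate 2 interval and shares at least 1 bp with a series-wide p300 peak. This rule gave 1507 peaks out of 28926 H3K4me3 replicate 1 peaks on the L and S chromosomes. They are called single-replicate peaks at p300 below. All libraries were made by chromatin immunoprecipitation and sequencing (ChIP-seq) from early gastrulae of the frog Xenopus laevis, staged as 10.5 in the Nieuwkoop-Faber (NF) series. The groups used were H3K4me3 (2 replicates) and p300 (2 replicates), and the labels give no genotype, strain or treatment for either. Embryos were pooled whole, so a peak can come from any of the germ layers and from a small part of the cells.

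H3K4me3 is written by SET1 and MLL methyltransferase complexes and is the characteristic mark of active and poised promoters, where it lies on the nucleosomes around the transcription start site. p300 is a lysine acetyltransferase recruited by transcription factors. It acetylates histones, including H3K27, and its binding is widely used to map enhancers, although it is also found at promoters. In the early gastrula of Xenopus the zygotic genome has been active since the midblastula transition, and the germ layers are being specified by enhancers that answer to maternal factors and inducing signals.

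The H3K4me3 lists held 28926 peaks in replicate 1 and 24154 in replicate 2 on the 18 L and S chromosomes, while the p300 lists held 31347 and 54814. The series-wide p300 list, in which each interval is the part shared by a replicate 1 and a replicate 2 call, held 23017. The lists give positions only, with no score and no read depth, so a larger list was not read as stronger marking. With 2 libraries per target and peaks as the units, no test over samples was possible. Shares carry Wilson 95% intervals and medians carry order-statistic 95% intervals. Both count each peak as an independent unit and reflect counting error alone.

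Of the 28926 replicate 1 peaks, 7411 had no counterpart in replicate 2, which is 25.6% of the list, and 7299 overlapped series-wide p300, which is 25.2%. Both criteria were used to choose the regions, so these values describe the choice. Among the 7411 peaks called in replicate 1 alone, 1507 lay at p300, a share of 20.3% (19.4 to 21.3%). Among the 21515 peaks that recurred in replicate 2, 5792 lay at p300, a share of 26.9% (26.3 to 27.5%). The H3K4me3 libraries differed when their roles were exchanged. Replicate 2 had 2039 peaks with no counterpart in replicate 1, 8.44% of its list, and 23.8% of all its peaks lay at series-wide p300. Of those 2039 peaks, 107 lay at p300, or 5.25% (4.36 to 6.30%). Every result below rests on H3K4me3 calls of replicate 1, and the part of that library in it was not tested.

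Single-replicate peaks at p300 were narrow. Their median width was 539 bp (quartiles 326 and 846 bp), against 1937 bp (quartiles 1216 and 3134 bp) for recurring replicate 1 peaks at p300. They were wider than the single-replicate peaks without p300, which had a median of 341 bp (quartiles 227 and 575 bp). Width was not part of the rule, but a wider interval meets p300 more easily, so some of this last difference follows from the overlap. A wider interval also meets a replicate 2 call more easily, so the demand for no such overlap favours narrow peaks. The part of this in the contrast with recurring peaks was not tested. The narrowest replicate 1 calls, 173 bp, made up 31 of the 1507 peaks at p300 and 381 of the 5904 without it. Of the 1507 peaks, 690 were at most 500 bp wide, 563 were over 500 and up to 1000 bp, and 254, or 16.9% (15.0 to 18.8%), were wider than 1000 bp. Of the single-replicate peaks without p300, 5.47% were wider than 1000 bp.

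**Figure D1:**
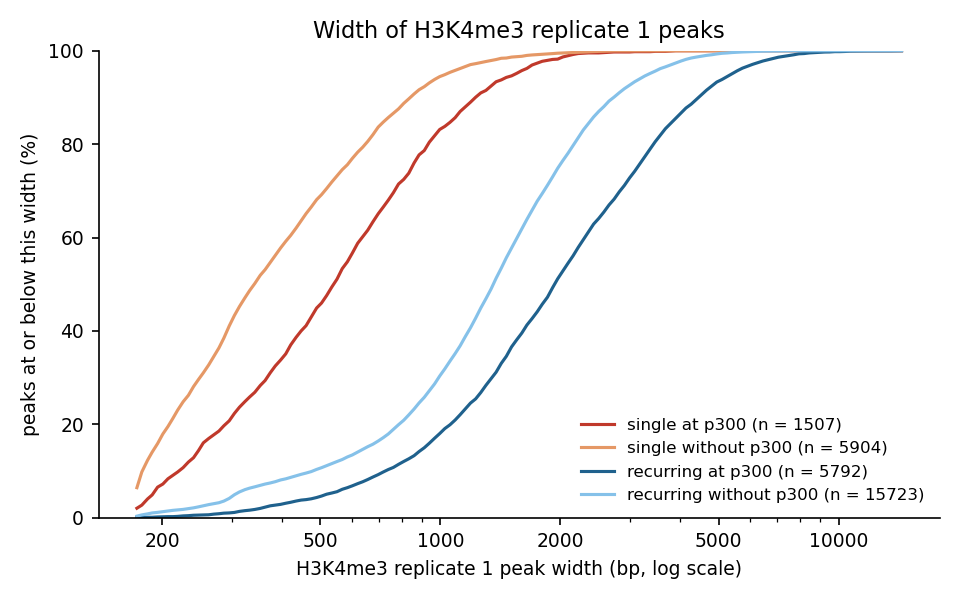
Cumulative percent of H3K4me3 replicate 1 peaks (vertical axis) at or below each width in bp (horizontal axis, log scale), for single-replicate peaks with and without series-wide p300 and for recurring peaks with and without it. The curve of the 1507 single-replicate peaks at p300, with a median of 539 bp, lies between that of single-replicate peaks without p300 (341 bp) and those of recurring peaks (1937 bp with p300, 1357 bp without).

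Because width and overlap are tied, the share at p300 was compared within width classes. Up to 700 bp single and recurring replicate 1 peaks had shares within a few percentage points of each other. Up to 300 bp, 11.4% (10.3 to 12.6%) of the single peaks and 8.12% (6.41 to 10.2%) of the recurring peaks lay at p300, with intervals that did not overlap. At widths over 300 and up to 500 bp, 19.0% (17.3 to 20.8%) of the single peaks and 17.3% (15.2 to 19.6%) of the recurring peaks lay at p300. From there up to 700 bp the shares were 25.3% (22.8 to 27.8%) and 23.0% (20.7 to 25.5%). In both of these classes the intervals overlapped.

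Over 700 and up to 2500 bp the classes parted. Up to 1000 bp, 29.6% (26.7 to 32.6%) of the single peaks and 18.8% (17.4 to 20.4%) of the recurring peaks lay at p300. Over 1000 and up to 1500 bp the shares were 41.4% (36.8 to 46.2%) of 413 single peaks and 19.9% (18.9 to 21.0%) of 5263 recurring peaks. Over 1500 and up to 2500 bp they were 50.3% (42.4 to 58.2%) of 151 single peaks and 25.7% (24.6 to 26.8%) of 6275 recurring peaks. Over 2500 bp the shares were 53.8% (29.1 to 76.8%) of only 13 single peaks and 50.5% (49.0 to 52.0%) of 4118 recurring peaks. These intervals overlapped, and no difference was seen at that width.

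The difference was present with each p300 library. Taking all replicate 1 peaks over 700 and up to 2500 bp, series-wide p300 lay at 516 of 1473 single peaks, 35.0% (32.6 to 37.5%), and at 3174 of 14260 recurring peaks, 22.3% (21.6 to 22.9%). The single peaks were the narrower ones in this range, with a median width of 922 bp against 1418 bp. Their share was the higher on 18 of 18 chromosomes, by 3.20 to 23.7 percentage points. With p300 replicate 1 alone the shares were 42.4% (39.9 to 44.9%) and 30.0% (29.2 to 30.7%), and single peaks were higher on 17 of 18 chromosomes. With p300 replicate 2 alone they were 41.7% (39.2 to 44.2%) and 34.3% (33.5 to 35.1%), and single peaks were higher on 16 of 18. Chromosomes share the same libraries and are not replicates.

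Exchange of the H3K4me3 replicates turned the direction round. Of the H3K4me3 replicate 2 peaks over 700 and up to 2500 bp, 8 of the 158 called in that replicate alone lay at series-wide p300, 5.06% (2.59 to 9.67%), against 3228 of the 14303 recurring ones, 22.6% (21.9 to 23.3%). The high p300 share of wide single peaks was therefore seen in H3K4me3 replicate 1 and not in replicate 2, and it cannot be told apart from a property of that library.

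**Figure D2:**
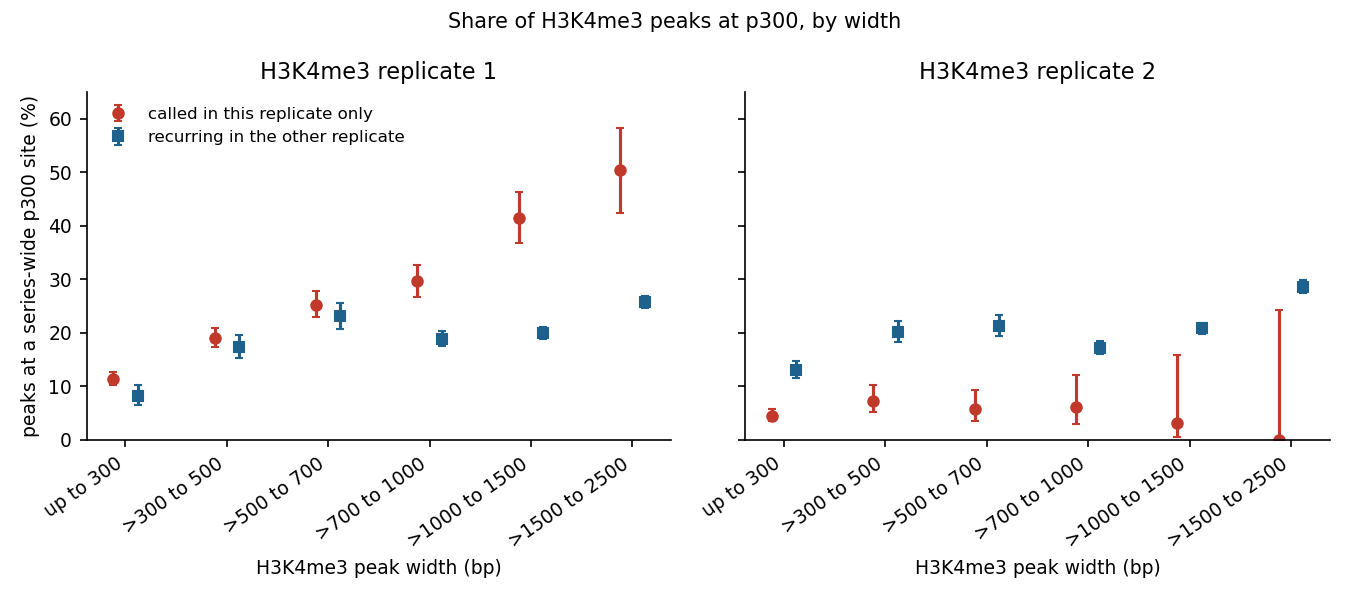
Percent of H3K4me3 peaks at a series-wide p300 site (vertical axis) by peak width in bp (horizontal axis), for peaks called in the named replicate only (circles) and peaks recurring in the other replicate (squares), with Wilson 95% intervals. In replicate 1 the single peaks reach 50.3% in the widest class shown, over 1500 and up to 2500 bp, and the recurring ones 25.7%, whereas in replicate 2 the single peaks stay between 0 and 7.26%, the 0 standing for 0 of 12 peaks (interval up to 24.2%).

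The p300 sites themselves came next. The 1507 peaks held 1646 series-wide p300 sites, none of which touched a series-wide H3K4me3 peak. A single p300 site was present in 1377 peaks, 2 sites in 122, 3 in 7 and 4 in 1, so 130 peaks, 8.63% (7.31 to 10.2%), held 2 or more. This share followed width: 2.61% (1.66 to 4.09%) of the peaks up to 500 bp held 2 or more sites, 9.59% (7.43 to 12.3%) of those over 500 and up to 1000 bp, and 22.8% (18.1 to 28.4%) of those over 1000 bp. Recurring peaks at p300 had 2.66% (1.30 to 5.39%), 4.56% (3.31 to 6.25%) and 25.5% (24.3 to 26.7%) in the same classes. In the middle class the intervals of single and recurring peaks did not overlap, and in the other 2 they did. The class over 1000 bp has no upper bound, so widths in it were unlike. Its recurring peaks reached 14379 bp and its single-replicate peaks 3868 bp. Over 1000 and up to 2500 bp, 247 single-replicate peaks overlapped 308 sites and 2661 recurring peaks 3058. Their median widths were 1289 and 1645 bp.

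p300 covered a large part of these narrow H3K4me3 peaks. The share of the peak's bases under p300 had a median of 36.7% (quartiles 21.4 and 56.0%), against 14.5% (quartiles 8.86 and 24.3%) for recurring peaks at p300. This contrast went with the width of the peaks. Up to 500 bp the median was 46.5% in single-replicate and 50.5% in recurring peaks at p300, over 500 and up to 1000 bp it was 35.2% and 30.7%, and over 1000 and up to 2500 bp it was 22.1% and 14.8%. In 26 cases the H3K4me3 peak lay wholly inside the p300 site. The p300 centre fell inside the H3K4me3 peak in 1179 of the 1646 sites, or 71.6%, and the whole site did in 699. The remaining centres lay beyond the edge of the H3K4me3 call, so that the p300 site straddled it. In recurring peaks at p300 the centre fell inside in 95.7% of the overlaps and the whole site in 87.8%. By the same 3 width classes, the centre fell inside in 55.1%, 82.2% and 87.3% for single-replicate peaks. For recurring peaks at p300 the values were 74.1%, 91.0% and 96.9%.

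Inside the peak, p300 was placed differently by width. In peaks over 500 and up to 1000 bp, with the distance from the centre to the edge divided into 4 equal parts, the innermost part held 35.3% (31.3 to 39.6%) of the 507 p300 centres and the outermost 17.4% (14.3 to 20.9%). In recurring peaks of this width the innermost part held 43.0% (39.5 to 46.6%) of 751 centres and the outermost 10.5% (8.52 to 12.9%). The intervals of the innermost part overlapped slightly, and those of the outermost part were apart. In this class the outermost part therefore held a larger share of the p300 centres in single-replicate than in recurring peaks. The median peak widths were 692 and 784 bp. In single-replicate peaks up to 500 bp the parts were about equal, with 24.1% in the innermost and 24.6% in the outermost of 390 centres. Recurring peaks up to 500 bp had 27.0% and 18.5%, with intervals that overlapped those of the single-replicate peaks. Over 1000 and up to 2500 bp the innermost part held 28.6% in single-replicate and 32.9% in recurring peaks, with overlapping intervals. The outermost part held 20.1% (15.7 to 25.3%) and 11.6% (10.5 to 12.8%), with intervals apart.

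**Figure D3:**
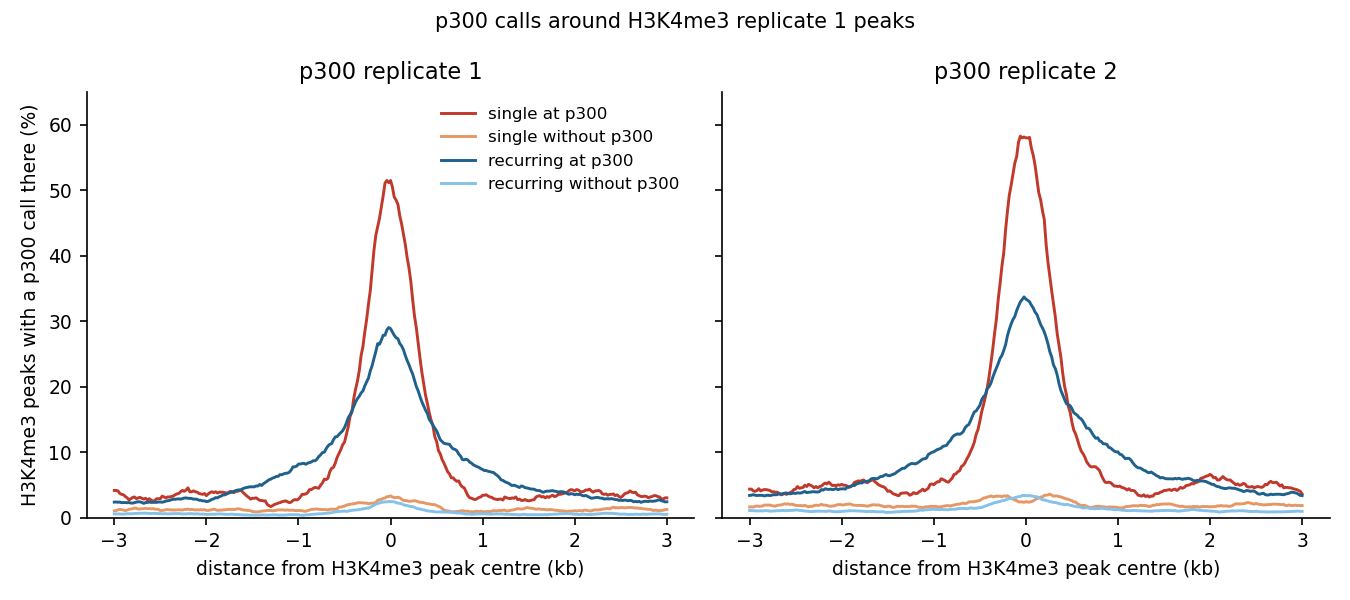
Percent of H3K4me3 replicate 1 peaks that have a p300 call (vertical axis) at each distance in kb from the peak centre (horizontal axis), with p300 replicate 1 on the left and p300 replicate 2 on the right. At the centre a p300 call covered 51.5% of the single-replicate peaks at p300 in p300 replicate 1 and 58.0% in p300 replicate 2, against 28.9% and 33.4% of recurring peaks at p300; a maximum there follows from the rule for both classes.

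The p300 calls at these peaks were wide. The replicate 1 calls behind the 1646 sites had a median width of 288 bp (281 to 296 bp) and the replicate 2 calls of 358 bp (351 to 367 bp). For the 13611 series-wide sites outside every H3K4me3 call the medians were 214 bp (212 to 215 bp) and 304 bp (302 to 306 bp). For the 6928 sites in series-wide H3K4me3 they were 275 bp (271 to 278 bp) and 352 bp (348 to 357 bp). The p300 calls at single-replicate peaks were thus wider than those away from H3K4me3 in both p300 libraries. A wider site meets the overlap of 1 bp more easily, and the part of this in the difference was not tested.

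The step between single-replicate and recurring H3K4me3 was small and depended on how overlap was counted. With only the sites whose centre lay inside the H3K4me3 peak, the series-wide p300 width was 254 bp (248 to 262 bp) at single-replicate peaks and 241 bp (239 to 244 bp) at recurring replicate 1 peaks. In the separate p300 libraries it was 279 bp (270 to 288 bp) against 270 bp (266 to 274 bp) in replicate 1, and 349 bp (342 to 356 bp) against 342 bp (338 to 346 bp) in replicate 2, with intervals that overlapped. Within the H3K4me3 width class over 1000 and up to 2500 bp the step was larger: 280 bp (264 to 305 bp) at 269 sites in single-replicate peaks against 227 bp (222 to 233 bp) at 2963 sites in recurring peaks. Up to 500 bp it was absent, with 230 bp (219 to 242 bp) against 236 bp (222 to 249 bp).

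Viewed from p300, the share of sites in a single-replicate H3K4me3 peak grew with the width of the site. It was 4.22% (3.84 to 4.63%) of the 10073 series-wide sites up to 200 bp wide, 7.84% (7.25 to 8.47%) of those over 200 and up to 300 bp, 11.2% (10.2 to 12.3%) of those over 300 and up to 400 bp, and 12.2% (10.9 to 13.6%) of the 2266 sites wider than 400 bp. The share of sites in series-wide H3K4me3 rose over the same classes, from 23.3% (22.5 to 24.2%) up to 200 bp to 47.6% (45.6 to 49.7%) over 400 bp. The rise was therefore not particular to single-replicate peaks. An overlap of 1 bp is met more easily by a wider site, and how much of either trend comes from that was not tested.

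Recurrence of the p300 calls is a measure that the choice of H3K4me3 peaks alone did not use, so it was read over all 7411 single-replicate peaks of H3K4me3 replicate 1. Of the 2121 p300 replicate 1 calls in such peaks, 78.7% (76.9 to 80.4%) recurred in p300 replicate 2. The value was 75.3% (74.4 to 76.1%) for calls in series-wide H3K4me3 and 71.5% (70.8 to 72.1%) for calls outside every H3K4me3 peak. Of the 2106 p300 replicate 2 calls in single-replicate peaks, 81.3% (79.6 to 82.9%) recurred in p300 replicate 1, compared with 68.4% (67.5 to 69.3%) in series-wide H3K4me3 and 31.8% (31.3 to 32.2%) outside every H3K4me3 peak. The p300 replicate 2 list held 54814 calls against 31347 in replicate 1, which limits how many replicate 2 calls can recur. The part of list size in these values was not tested. In peaks called in H3K4me3 replicate 2 alone, 44.6% (38.5 to 50.9%) of 242 p300 replicate 1 calls recurred. Of 190 p300 replicate 2 calls there, 60.5% (53.4 to 67.2%) recurred. Both shares were below those in series-wide H3K4me3, with intervals apart, so the direction depended on the H3K4me3 replicate. Over all widths, p300 calls inside H3K4me3 peaks of replicate 1 alone were found again somewhat more often than those inside series-wide H3K4me3.

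Part of this ran with the width of the p300 call. Among p300 replicate 2 calls over 200 and up to 300 bp, 70.2% (66.4 to 73.8%) of those in single-replicate peaks recurred, 57.1% (55.4 to 58.8%) of those in series-wide H3K4me3 and 26.7% (26.1 to 27.4%) of those outside. Among those wider than 400 bp the values were 95.6% (93.8 to 96.8%), 94.4% (93.4 to 95.2%) and 82.8% (81.6 to 84.0%). For p300 replicate 1 calls over 200 and up to 300 bp they were 80.2% (77.2 to 83.0%), 77.9% (76.4 to 79.3%) and 76.9% (75.8 to 78.0%), and these intervals overlapped. In the wider p300 replicate 1 calls the values for single-replicate peaks were below those for series-wide H3K4me3, again with overlapping intervals: 89.6% (86.5 to 92.1%) against 91.5% (90.0 to 92.8%) over 300 and up to 400 bp, and 95.3% (92.8 to 97.0%) against 97.4% (96.4 to 98.1%) over 400 bp. Among p300 replicate 1 calls up to 200 bp, 56.2% (52.0 to 60.2%) of those in single-replicate peaks recurred. The value was 54.1% (52.4 to 55.9%) in series-wide H3K4me3, with overlapping intervals. Outside every H3K4me3 peak it was higher, 61.9% (60.9 to 62.9%), with intervals apart. At like width, a higher recurrence than in series-wide H3K4me3 with intervals apart was seen for p300 replicate 2 calls up to 400 bp wide and in no width class of p300 replicate 1 calls.

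**Figure D4:**
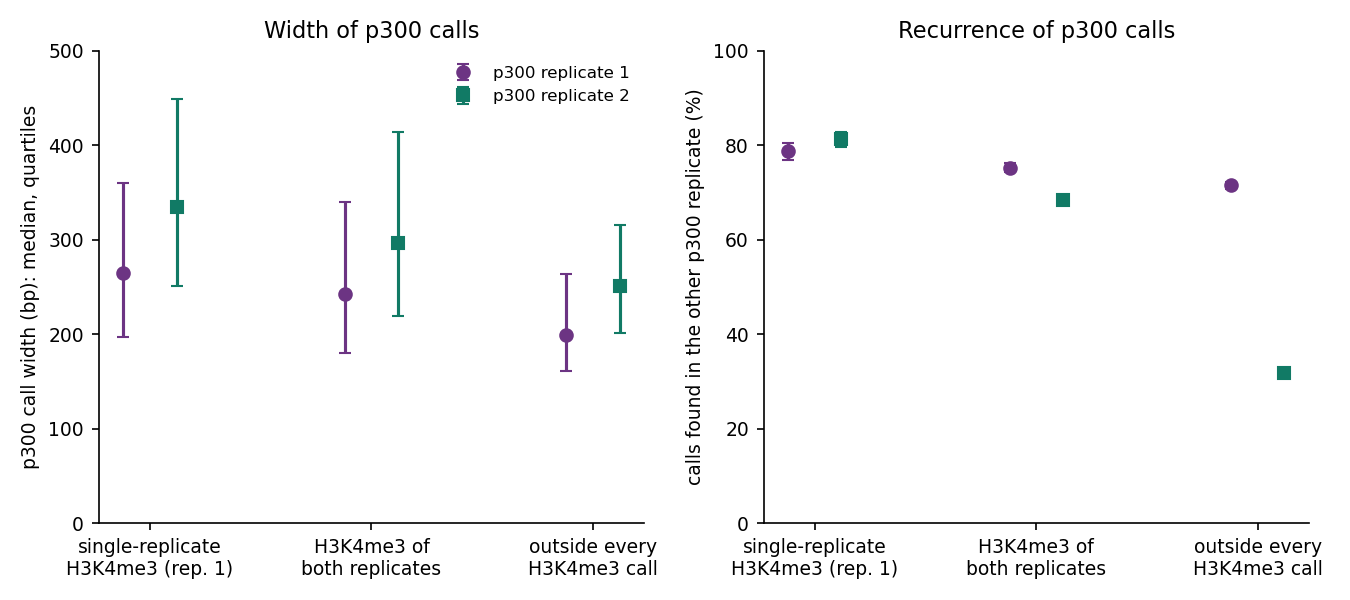
Left, width in bp of p300 calls (points, median; bars, quartiles); right, percent of p300 calls found in the other p300 replicate (bars, Wilson 95% intervals), for calls in single-replicate H3K4me3 replicate 1 peaks, in series-wide H3K4me3 and outside every H3K4me3 call. Recurrence of p300 replicate 2 calls was 81.3%, 68.4% and 31.8% in these places, and of p300 replicate 1 calls 78.7%, 75.3% and 71.5%. The replicate 2 list is the larger, 54814 against 31347 calls, which limits how many of its calls can recur. Calls in peaks of H3K4me3 replicate 2 alone are not drawn, and they recurred less often than calls in series-wide H3K4me3.

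Some of the p300 sites outside the series-wide H3K4me3 list lay in these peaks. Of the 23017 series-wide p300 sites, 16089 lay outside the series-wide H3K4me3 list, which is 69.9%. Of these, 1646, or 10.2% (9.77 to 10.7%), lay in a single-replicate peak of H3K4me3 replicate 1. A further 106 lay in a peak of replicate 2 alone, and 726, or 4.51% (4.20 to 4.84%), in a recurring call beyond the part that both replicates cover. The remaining 13611, or 84.6% (84.0 to 85.1%), met no H3K4me3 call of either replicate. The first share rested on H3K4me3 replicate 1, and with the H3K4me3 replicates exchanged it was 0.677%. It also rested on the p300 library. With p300 replicate 1 alone it was 9.56%, and with p300 replicate 2 alone, without p300 replicate 1, it was 4.70%. The numbers of p300 calls in these single-replicate peaks were alike, 2121 for replicate 1 and 2106 for replicate 2. Outside every H3K4me3 call they were 18911 and 41607.

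Single-replicate peaks at p300 lay closer to other H3K4me3 than their counterparts without p300. The gap to the nearest series-wide H3K4me3 peak had a median of 11.5 kb (quartiles 3.70 and 33.6 kb), against 19.8 kb (quartiles 4.51 and 61.4 kb) for single-replicate peaks without p300. Within 10 kb lay 46.1% (43.6 to 48.6%) of the peaks at p300 and 36.8% (35.6 to 38.1%) of those without. Very short gaps went the other way: 44 peaks at p300, 2.92% (2.18 to 3.90%), lay within 1 kb, and 5.39% (4.84 to 5.99%) of those without p300. This order at very short gaps was not seen with the H3K4me3 replicates exchanged. Of the replicate 2 single peaks, 10.3% (5.84 to 17.5%) of those at p300 and 6.11% (5.12 to 7.27%) of those without lay within 1 kb, with overlapping intervals.

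Read by distance, the share of single-replicate peaks at p300 was highest at intermediate range. It was 12.2% (9.18 to 15.9%) of the 362 single-replicate peaks within 1 kb of series-wide H3K4me3, 25.8% (23.7 to 28.0%) from 1 to 5 kb, 26.3% (23.4 to 29.3%) from 5 to 10 kb, 21.6% (20.1 to 23.3%) from 10 to 50 kb, and 13.2% (11.8 to 14.7%) of the 2019 peaks farther than 50 kb. With the p300 libraries taken singly the share was likewise lower at both ends, with 15.5% within 1 kb, 30.8% from 1 to 5 kb and 18.4% beyond 50 kb for p300 replicate 1, and 15.7%, 33.6% and 16.8% for p300 replicate 2. The median width of the single-replicate peaks was 348 bp within 1 kb, 411 bp from 1 to 5 kb, 401 bp from 5 to 10 kb, 379 bp from 10 to 50 kb and 342 bp beyond 50 kb. It too was lower at both ends than in between, and its part in the p300 share was not tested. Among the single peaks of H3K4me3 replicate 2, the p300 share showed no drop at the near end. It was 8.53% (4.83 to 14.6%) within 1 kb, 9.38% (6.82 to 12.8%) from 1 to 5 kb and 8.84% (5.51 to 13.9%) from 5 to 10 kb. From 10 to 50 kb it was 4.78% (3.43 to 6.64%), and beyond 50 kb 1.80% (1.03 to 3.12%).

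The flanks were rich in further p300 sites. Another series-wide p300 site lay within 10 kb of 900 of the 1507 peaks, 59.7% (57.2 to 62.2%). The share was 43.8% (42.6 to 45.1%) for recurring peaks at p300 and 31.3% (30.1 to 32.5%) for single-replicate peaks without p300. With the p300 replicate 1 list alone it was 66.0%, 49.4% and 37.8%, and with the replicate 2 list 74.7%, 61.6% and 48.6%. The mean number of further sites within 10 kb was 1.47 at single-replicate peaks, compared with 0.940 at recurring peaks at p300. A recurring peak is wider, and more of its neighbouring p300 sites fall inside it and are not counted as flank. Counted by p300 site in place of peak, 64.9% (62.6 to 67.2%) of the sites in single-replicate peaks had another site within 10 kb, against 60.5% (59.3 to 61.6%) of those in series-wide H3K4me3 and 48.5% (47.7 to 49.3%) of those outside every H3K4me3 call. At 5 kb the first 2 classes were alike, with 54.4% (52.0 to 56.8%) and 53.2% (52.0 to 54.4%), and the mean number of neighbours was 1.05 and 1.08. The sites outside every H3K4me3 call had 36.8%. Sites in single-replicate peaks were not the most clustered. Of the 726 sites in a recurring call beyond the part that both replicates cover, 78.2% (75.1 to 81.1%) had another site within 10 kb. Within 5 kb the share of these 726 sites was 71.9%. For the 106 sites in peaks of H3K4me3 replicate 2 alone it was 61.3% within 10 kb. That interval overlapped the one for single-replicate peaks of replicate 1.

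The peaks also grouped with each other. Another single-replicate peak of replicate 1 lay within 10 kb of 28.5% (26.2 to 30.8%) of them, compared with 17.2% (16.3 to 18.2%) of the single-replicate peaks without p300. Another single-replicate peak at p300 lay within 10 kb of 216 of them, 14.3% (12.7 to 16.2%), compared with 4.52% (4.02 to 5.08%) of those without p300. Both the peaks and the neighbours in this count were chosen at p300, while the comparison set was chosen without it. Even outside every H3K4me3 call, 48.5% of p300 sites had another within 10 kb, so part of this contrast follows from the choice. The same count was not made for recurring peaks at p300. Of the 100 kb windows that start at each of the 1507 peaks, 1207 held no second one and 3 held 6, the highest number found.

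Those 3 windows were on chromosomes 6L, 8L and 9_10L. The 8L window, from 1770142 to 1870141, held 11 H3K4me3 peaks of replicate 1 and 2 of replicate 2, with 17 p300 calls of replicate 1 and 21 of replicate 2. Its 6 single-replicate peaks at p300 measured 974, 680, 996, 2055, 467 and 236 bp in chromosomal order, and the widest p300 site at each measured 394, 420, 859, 1173, 419 and 497 bp. The 6L window, from 106681 to 206680, held 12 H3K4me3 peaks of replicate 1 and 3 of replicate 2, with 12 and 16 p300 calls. Its widest member, from 152555 to 153995, measured 1441 bp, and the 5 others measured 209 to 424 bp. The 9_10L window, from 18092708 to 18192707, held 10 H3K4me3 peaks of replicate 1 and 6 of replicate 2, with 11 and 13 p300 calls, and 3 of its 6 peaks lay in a row between 18106616 and 18109600.

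**Figure D5:**
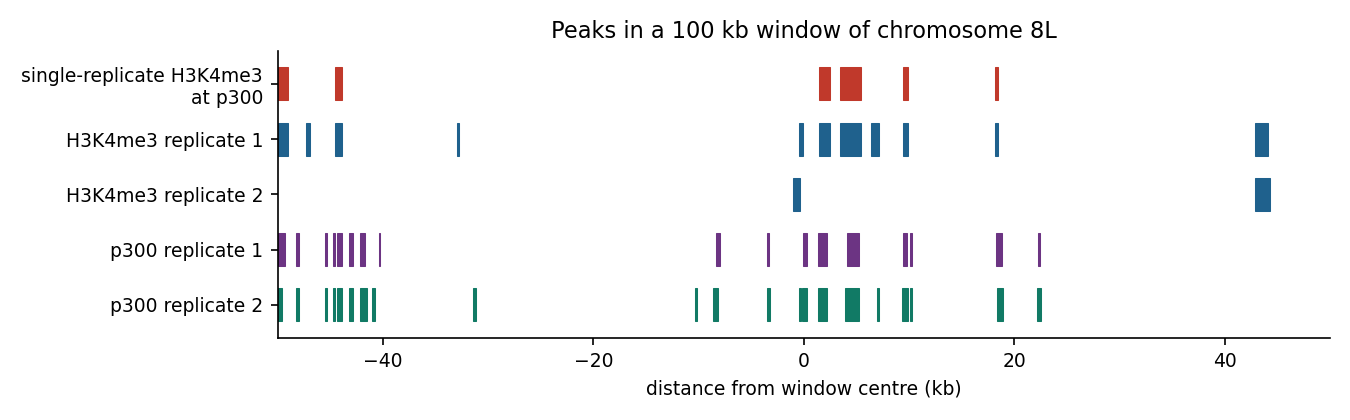
Peaks in the 100 kb window of chromosome 8L, drawn by distance in kb from its centre (horizontal axis), with 1 row each for single-replicate H3K4me3 peaks at p300, the H3K4me3 replicates and the p300 replicates. H3K4me3 replicate 1 has 11 peaks in the window and replicate 2 has 2; the coincidence of the 6 single-replicate peaks with calls in both p300 rows follows from the rule.

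Single regions were named by width, number of p300 sites, distance and p300 width. The widest lay on chromosome 9_10S from 3567088 to 3570955, 3868 bp, and it also held the most p300 sites, 4 in the series-wide list and 4 calls in each p300 replicate. The nearest H3K4me3 replicate 2 peak was 3.17 kb away. The next widest were on 8L from 120075139 to 120078903 (3765 bp, 2 p300 sites), on 6S from 16051776 to 16055196 (3421 bp, with 1 site), on 4S from 18336278 to 18339335 (3058 bp, with 1 site) and on 9_10S from 16736728 to 16739391 (2664 bp, with 2 sites). All 5 lay within 10 kb of a series-wide H3K4me3 peak, between 3.17 and 8.27 kb.

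Of the 7 peaks with 3 p300 sites, the 4 widest were taken. The 7L peak spanned 2160 bp from 12855419 to 12857578, and the 8S peak 1998 bp from 27492554 to 27494551. The 3L peak spanned 1625 bp from 119558362 to 119559986, and the 7S peak 1594 bp from 21194650 to 21196243. Their surroundings differed: the 8S peak lay 1.06 kb from series-wide H3K4me3, the 7S peak 4.66 kb, the 3L peak 27.0 kb and the 7L peak 53.6 kb.

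The 5 peaks farthest from any H3K4me3 replicate 2 peak held 1 p300 site each and ranged in width from 178 to 958 bp, on both sides of the median of 539 bp. They lay on 4S from 76067568 to 76067796 (229 bp, 509 kb away), on 5S from 117662147 to 117662324 (178 bp, 504 kb), on 6L from 68980386 to 68980835 (450 bp, 447 kb), on 6L from 37469566 to 37470322 (757 bp, 446 kb) and on 3L from 91375861 to 91376818 (958 bp, 396 kb).

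The widest p300 site in any of these peaks, 1173 bp from 1824220 to 1825392 on 8L, lay wholly inside the 2055 bp peak of the 8L window. The next, 1023 bp, lay across the edge of a peak on 1S from 126829431 to 126830362 and shared 503 bp with it. The other 3 were on 7S, in peaks from 87868122 to 87869109, from 67881952 to 67882915 and from 84197051 to 84198735, with p300 sites of 960, 955 and 923 bp. In the first and second of these 7S peaks, 988 and 964 bp wide, p300 covered nearly the whole H3K4me3 interval.

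At the limits of the rule, the smallest p300 overlap was 1 bp, on 1L from 3087659 to 3087925 and on 5L from 129285663 to 129286228, and 134 of the 1507 peaks shared under 50 bp with p300. The median overlap was 189 bp. Just outside, a single-replicate peak on 4S from 49732510 to 49732893 touched a p300 site with a gap of 0 bp, and 88 single-replicate peaks without overlap had a p300 site within 50 bp. Toward replicate 2 the limit was less crowded. The smallest gap was 84 bp, on 7L from 21828412 to 21828942, and the recurring peak at p300 with the least sharing, on 4L from 50202590 to 50203221, had 2 bp in common with replicate 2.

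The subgenomes were compared last. Xenopus laevis is allotetraploid, and each chromosome exists as a long (L) and a short (S) homeolog of different ancestry. Of the single-replicate peaks at p300, L chromosomes carried 891 and S chromosomes 616. The log2 ratio averaged 0.54 ± 0.19 (SD, n = 9 chromosome pairs) and was above 0 in each of the 9. The lowest ratio was 0.21, in pair 9_10 with 102 on L and 88 on S, and the highest 0.82, in pair 6 with 99 on L and 56 on S. Per Mb of chromosome span the mean log2 ratio was 0.27 ± 0.16. Beside them, all H3K4me3 replicate 1 peaks numbered 16346 on L and 12580 on S, a ratio of 0.38 ± 0.09, and all series-wide p300 sites 13268 and 9749, a ratio of 0.44 ± 0.08. The ratio of the single-replicate peaks at p300 exceeded that of all replicate 1 peaks by 0.16 ± 0.16, in 8 of 9 pairs, and that of all p300 sites by 0.10 ± 0.17, also in 8 of 9. It exceeded that of single-replicate peaks without p300, 0.36 ± 0.13, by 0.18 ± 0.21 in 8 of 9 pairs. It exceeded that of recurring peaks at p300, 0.43 ± 0.13, by 0.11 ± 0.23 in 7 of 9. These differences were not tested, since chromosome pairs of the same libraries are not samples.

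Among chromosomes, the share of single-replicate peaks at p300 was lowest on 5S, with 15.8% (12.3 to 20.1%), and highest on 9_10S, with 25.3% (21.0 to 30.1%). For recurring peaks the lowest share at p300 was on 9_10S, 22.3%, and 5S had 29.6%, so the chromosomes at the ends of the first order stood differently in the second. Neighbours in the order had overlapping intervals. Chromosome 8L had the highest density, 0.932 single-replicate peaks at p300 per Mb of span, and 5S the lowest, 0.388.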

How the data were processed

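Peak lists of H3K4me3 and p300 ChIP-seq, 2 replicates each, were analysed. 7 of the 11 samples were not analysed here. The deposited lists hold positions (start and end) and no score. BWA (0.7.10-r789), bedtools and MACS2 (2.1.0.20140616) were used, per the submitters' processing notes. Build, threshold, control and duplicate handling were not given in the sources used here, so differences in depth or threshold between libraries can decide which peaks recur. All series-wide intervals (24948 of H3K4me3, 25010 of p300) matched the stretch shared by a replicate 1 and a replicate 2 call to the base. The labels do not say whether replicates are separate clutches.

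The members and comparisons were chosen with earlier results of these data known. Overlap of at least 1 bp, gaps and 10 kb flanks were computed with Python 3.11.15, numpy 2.4.6, pandas 2.3.3 and scipy 1.17.1, and the functions were checked base by base on simulated lists. Coordinates are 1-based in the unnamed build. Spans end at the last peak of a chromosome. Named regions are the 5 widest, the 5 with most p300 sites (ties broken by H3K4me3 width), the 5 farthest from replicate 2, the 5 with the widest p300 site, the 3 fullest 100 kb windows and those nearest the limits of the rule. Gene names and sequence were not used here, because no annotation of the files' build was at hand. Alternatives were an overlap of 50%, each p300 list, a 1 kb margin, a width of 300 bp or more, equal numbers of the widest peaks, scaffolds, and exchanged replicates. A p300 centre inside the peak was added after seeing the data.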

Additional observations from a re-analysis of the deposited data

How the results depend on the processing

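The number of single-replicate peaks at p300 was 1071 to 1940 in the alternatives that keep replicate 1 as the single library, within 1.5 times the 1507 reported, and 107 with the H3K4me3 replicates exchanged. With the p300 lists taken singly, their share among single-replicate peaks was 25.9 to 26.2%, the p300 width 265 to 335 bp, the share with another p300 site within 10 kb 61.6 to 74.1%, and the share of p300 sites outside series-wide H3K4me3 that they hold 4.70 to 9.56%. For these values the peaks were chosen anew with each p300 list, giving 1920 and 1940 peaks. The flank shares and call widths given above for each p300 replicate keep the 1507 peaks. An overlap of 50% of the shorter interval gave a share at p300 of 15.7%, a median width of 605 bp, 2 or more sites in 6.37%, and 7.70% of the outside p300 sites. A p300 centre inside the peak, chosen after seeing the data, gave 14.9%, 625 bp, 6.72% and 7.33%, with a p300 width of 254 bp. With H3K4me3 peaks of at least 300 bp the values were 25.2%, 651 bp and 10.3%, and 19.1% lay within 1 kb of series-wide H3K4me3, since peaks whose partner was too narrow then counted as single. With equal numbers of widest peaks (24154) they were 27.6%, 692 bp and 11.9%, and 62.7% had another p300 site within 10 kb. With replicates exchanged the share at p300 was 5.25% and the share of outside p300 sites 0.677%. A margin of 1 kb to replicate 2 leaves 0% within 1 kb by construction. Within 5 kb of series-wide H3K4me3 lay 31.2%, and within 1 kb of any replicate 2 peak 4.38%. Further p300 lay within 5 kb of 47.4% and within 25 kb of 73.9%. Per Mb of span the L to S log2 ratio was 0.27. No paired analysis was possible because the rule uses both H3K4me3 replicates and the results come from no test. Without read depth, absence from replicate 2 cannot be told apart from a call below its threshold.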

Other observations

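The H3K4me3 peaks called in replicate 2 alone that lay at series-wide p300 numbered 107, and they differed from the 1507 of replicate 1 in place as well as in number. Their median width was 298 bp (quartiles 217 and 464 bp), and 1 was wider than 1000 bp. The nearest H3K4me3 peak of the other replicate lay at a median of 2.33 kb, against 10.8 kb for the replicate 1 set, and 26.2% (18.8 to 35.2%) lay within 1 kb of one, against 4.38% (3.46 to 5.53%). These gaps were measured to unlike lists, since the replicate 2 list is the smaller. To the series-wide H3K4me3 list, common to both sets, the medians were closer, 7.5 kb and 11.5 kb. Within 1 kb of that list lay 10.3% (5.84 to 17.5%) and 2.92% (2.18 to 3.90%).

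Among the 7411 single-replicate peaks of H3K4me3 replicate 1, 404 had a p300 call of replicate 1 only and 424 of replicate 2 only, and they do not count as lying at series-wide p300. A further 9 had calls of both p300 replicates that shared no base inside the peak. The remaining 5067, or 68.4% (67.3 to 69.4%), met no p300 call. On unplaced scaffolds the same criteria picked out 176 of 3895 replicate 1 peaks.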
